A study of Mus musculus with 20 samples.

Results

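The 10 genes described here encode proteins that assemble, form or bind lipoproteins. They are the apolipoproteins Apob, Apoa1, Apoa4, Apoa5, Apoc1, Apoc3 and Apoe, the transfer protein Mttp, and the receptor-family members Vldlr and Lrp11. They were chosen by name from the 46078 genes counted in mouse liver mRNA, and all 10 were among the 14759 genes with enough counts to be tested. The study asked how liver responds when cysteine can be neither eaten nor made. It used male mice of a mixed 129/C57BL/6 background, at least 9 weeks old, which lacked Cse (also called Cth, the enzyme that releases cysteine from cystathionine) or kept 1 copy of it. These genotypes are written Cse-/- and Cse+/-. The submitted labels call the second genotype WT, whereas the study's own list of these libraries gives it as heterozygous, and the latter name is used. All mice ate a restricted ration of a defined amino acid diet (5CC7) for 3 days, and livers were taken 2 days after the shift to a restricted test diet. For the BSO group the study states day 2 of a restricted diet, but does not describe the 3 days before it separately. The test diets were complete (control), free of cysteine (no-Cys), free of tryptophan (no-Trp), or free of tryptophan with L-buthionine sulfoximine (BSO), an inhibitor of the first step of glutathione synthesis. The 20 livers fell into 6 groups, with 2 Cse+/- control, 4 Cse+/- no-Cys, 3 Cse+/- no-Trp, 4 Cse-/- no-Cys, 3 Cse-/- no-Trp and 4 Cse-/- no-Trp + BSO livers. The Cse deletion is present in every cell of the body, and no Cse-/- liver on the control diet was analysed here. Nothing states which livers came from littermates or shared a cage, so the tests measure the spread between livers as sampled.

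Lipoproteins carry fat and cholesterol through blood. In hepatocytes, microsomal triglyceride transfer protein (the product of Mttp) loads lipid onto apolipoprotein B to make very-low-density lipoprotein (VLDL), while apolipoprotein A-I is the main protein of high-density lipoprotein (HDL). Smaller apolipoproteins then set the fate of the particle: apolipoproteins C-I and C-III slow its lipolysis and clearance, apolipoprotein A-V promotes lipolysis by lipoprotein lipase, and apolipoprotein E is a ligand for lipoprotein receptors of the cell surface. The VLDL receptor is such a receptor and is scarce in healthy liver, and Lrp11 encodes a little-studied membrane protein placed among these receptors by name.

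Levels below are CPM, the reads of a gene per 1e6 reads of its library, scaled with the TMM factors of edgeR. Library totals ran from 11785740 to 57986121 counts with a median of 15252745, and the 10 genes together took 3.55% to 5.11% of each library. Reads of Cth followed the genotype labels, at 6.37 to 14.4 CPM in the 11 Cse-/- livers and 88.3 to 332 CPM in the 9 Cse+/- livers. Hepatocyte markers were abundant in every liver, with Alb at 25487 CPM or more. The mouse livers labelled av14 (Cse-/- no-Trp) and av17 (Cse+/- no-Trp) also carried adipose transcripts, with Adipoq at 1.08 and 2.91 CPM, whereas Adipoq did not exceed 0.155 CPM in any no-Cys liver.

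On the no-Cys diet, Cse-/- livers had more Vldlr and Lrp11 mRNA and less Apoa1, Apoc1, Apoc3 and Apoe mRNA than Cse+/- livers. Vldlr was 3.83-fold and Lrp11 3.95-fold higher, whereas the 4 apolipoprotein mRNAs were at 0.561 to 0.799 of the Cse+/- level. Of these, Apoe (0.799) was near the threshold, and its call held in only 3 of 8 fits that left out a liver. Apob and Mttp, which make up the core of VLDL assembly, and Apoa4 and Apoa5 did not pass the test. In bulk RNA, fewer cells of a type and less mRNA per cell cannot be told apart. By count, 2 of the 10 genes were called higher and 4 lower (edgeR quasi-likelihood test, Benjamini-Hochberg adjusted p under 0.05), against 11.6% of all tested genes called higher and 12.2% called lower. The median log2 difference of the 10 genes was -0.16, and that of all tested genes was -0.0093. On the no-Trp diet, Vldlr (log2 difference 1.22) and Lrp11 (1.18) were also higher in Cse-/- livers, without overlap but without passing the edgeR test. For the interaction of genotype and diet, edgeR called 0 of the 10 genes. With no Cse-/- liver on the control diet, the parts of genotype and of missing cysteine cannot be told apart.

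**Figure D1:**
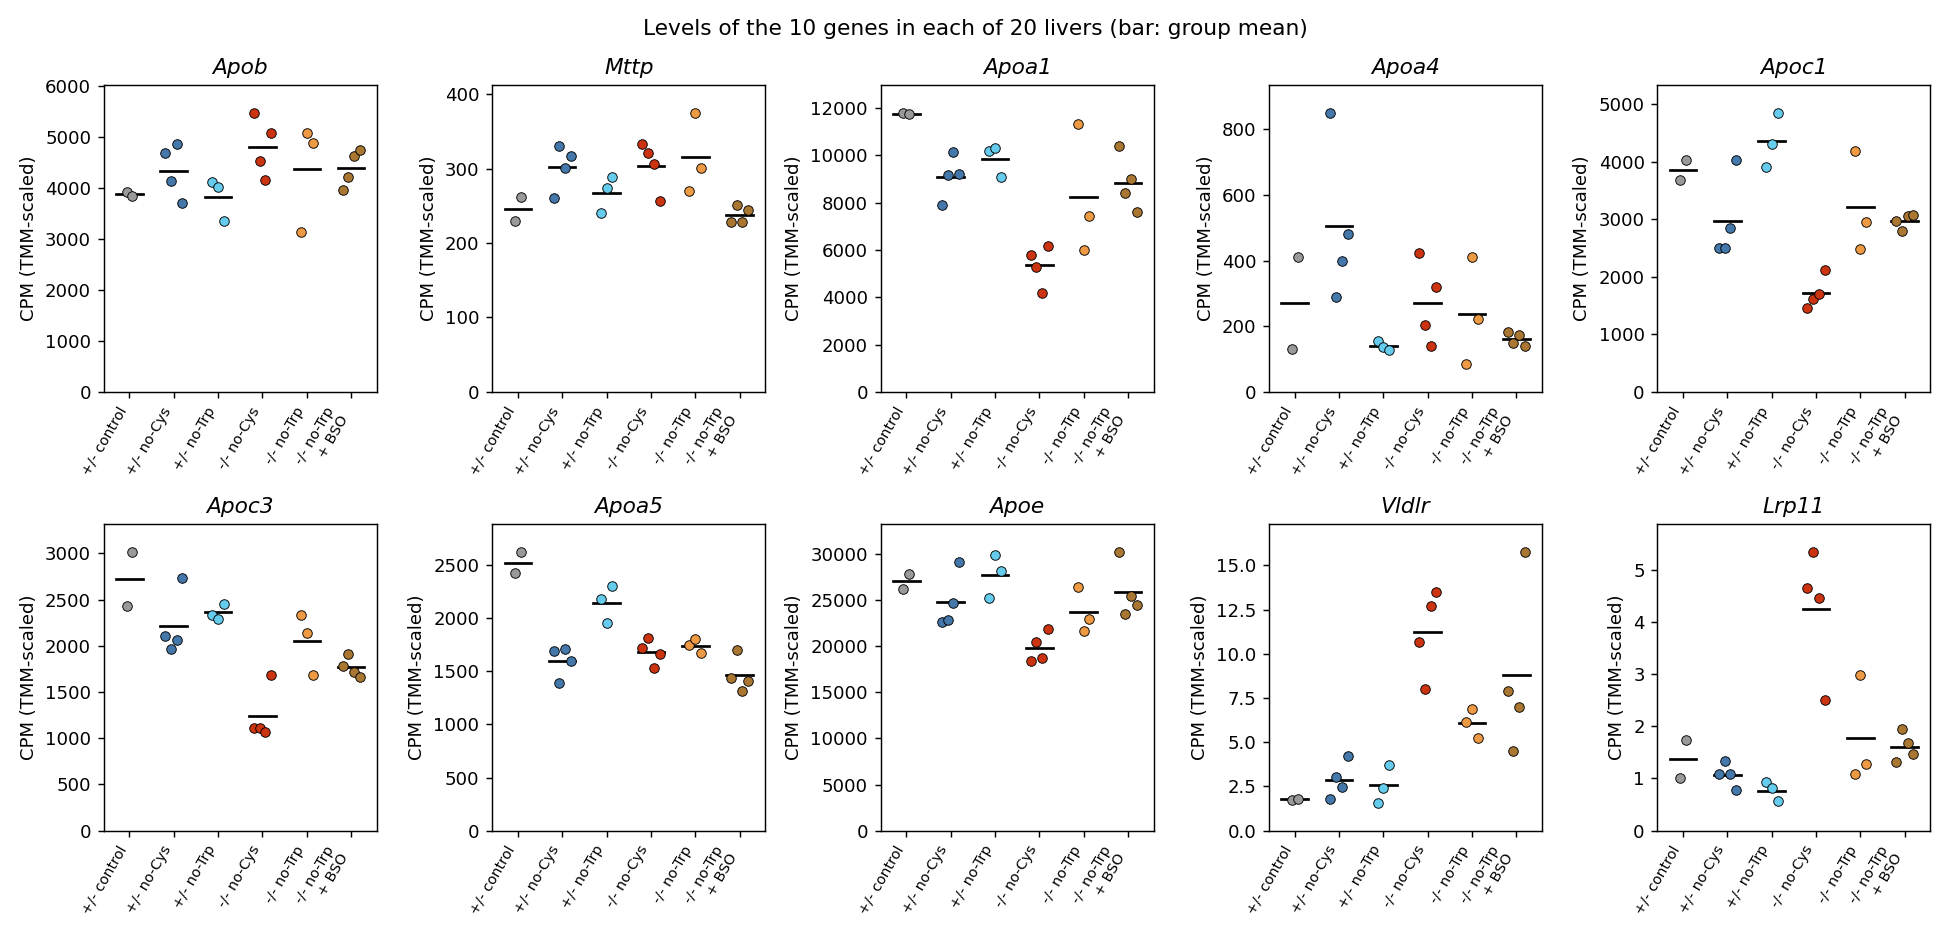
Level of each of the 10 genes (y axis, TMM-scaled CPM, from 0) in each of the 20 livers (points) by genotype and diet (x axis); the bar is the group mean. All 11 Cse-/- livers lie at or above 4.48 CPM for Vldlr and all 9 Cse+/- livers at or below 4.24 CPM, whereas for Lrp11 the 3 highest livers are Cse-/- no-Cys livers (4.46 CPM or more) and the fourth of that group, at 2.51 CPM, lies below a Cse-/- no-Trp liver at 2.99 CPM.

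Vldlr (ENSMUSG00000024924, chr19:27216484-27254231 on the plus strand of GRCm38) was a low-abundance transcript, with 20 to 493 reads per liver. It stood at 1.72 and 1.81 CPM in the Cse+/- control livers, at 1.80, 3.03, 2.49 and 4.24 CPM in the Cse+/- no-Cys livers, and at 1.56, 2.42 and 3.69 CPM in the Cse+/- no-Trp livers. In Cse-/- mice it was 10.7, 7.99, 12.7 and 13.5 CPM without cysteine, 6.17, 6.85 and 5.26 CPM without tryptophan, and 7.90, 4.48, 7.01 and 15.8 CPM without tryptophan and with BSO. Every Cse-/- liver therefore exceeded every Cse+/- liver, and among the Cse-/- groups the BSO livers spanned the range of the other two. On the no-Cys diet the log2 difference between genotypes was 1.94 (SE 0.332, n = 4 and 4, edgeR adjusted p = 3.95e-04). On the no-Trp diet it was 1.22 (SE 0.370, n = 3 and 3) and did not pass (edgeR adjusted p = 0.0797), although the groups did not overlap and DESeq2 called it (adjusted p = 0.0232). The difference between these genotype effects was 0.72 (SE 0.497, edgeR adjusted p = 0.457), and from 0.40 (without av20) to 0.96 (without av04) when each liver was left out.

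Within Cse-/- mice, the diets could not be separated firmly for Vldlr. All no-Cys livers lay above all no-Trp livers, with a log2 difference of 0.89 (SE 0.329, edgeR adjusted p = 0.0900), which passed when no filter on low counts was applied (0.87, edgeR adjusted p = 0.0356) or with only these groups in the fit (0.88, edgeR adjusted p = 0.0401). Against no-Trp + BSO the difference was 0.33 (SE 0.294, edgeR adjusted p = 0.566), and the ranges overlapped. It was 0.78 without av12 and 0.13 without av10. Adding BSO to the no-Trp diet gave 0.56 (SE 0.325, edgeR adjusted p = 0.486), with the liver av12 at 15.8 CPM the highest of all 20, and 0.0995 without that liver. Of the livers with adipose transcripts, av14 had 6.17 CPM of Vldlr, in the middle of its group, and av17 had 1.56 CPM, the lowest of its group. The part of adipose RNA in the Vldlr values was not tested.

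Lrp11 (ENSMUSG00000019796, chr10:7589800-7625483, plus strand) was scarcer still, with 11 to 79 reads per liver. In the Cse-/- no-Cys livers it was 4.66, 5.35, 4.46 and 2.51 CPM. The Cse-/- no-Trp livers had 1.08, 2.99 and 1.28 CPM, and the Cse-/- no-Trp + BSO livers 1.31, 1.94, 1.68 and 1.47 CPM. Cse+/- livers had 1.01 and 1.74 CPM on control diet, 1.08, 1.34, 1.09 and 0.778 CPM without cysteine, and 0.923, 0.815 and 0.560 CPM without tryptophan. In contrast to Vldlr, 3 of the 4 Cse-/- no-Cys livers lay above every other liver, and the fourth lay among them. The log2 difference was 1.98 against Cse+/- no-Cys (SE 0.323, edgeR adjusted p = 2.46e-04), without overlap. It was 1.29 against Cse-/- no-Trp (SE 0.32, edgeR adjusted p = 0.0153), where 1 no-Trp liver at 2.99 CPM lay above the lowest no-Cys liver, and 1.44 against Cse-/- no-Trp + BSO (SE 0.291, edgeR adjusted p = 0.0159), without overlap. These comparisons share the Cse-/- no-Cys livers and are not independent. The call against no-Trp was lost when av14 or av16 was left out, and that against no-Trp + BSO when av05, av06, av09 or av11 was. The genotype difference on the no-Trp diet was 1.18 (SE 0.375, edgeR adjusted p = 0.0949), also without overlap, and the interaction was 0.80 (SE 0.501, edgeR adjusted p = 0.40). Without av15, the no-Trp liver at 2.99 CPM, these were 0.62 and 1.36.

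The sequence just before the start of transcription is shown for the genes called higher in Cse-/- than in Cse+/- no-Cys livers, Vldlr and Lrp11. It is also shown for Apoa1, an abundant gene called lower, so that these promoters can be read beside the values. Each run covers the 200 bases from 250 to 51 bases before a RefSeq start (GRCm38.p6), written 5′ to 3′ on the strand of the gene, and all 3 genes lie on the plus strand.
Vldlr, chr19:27216234-27216433: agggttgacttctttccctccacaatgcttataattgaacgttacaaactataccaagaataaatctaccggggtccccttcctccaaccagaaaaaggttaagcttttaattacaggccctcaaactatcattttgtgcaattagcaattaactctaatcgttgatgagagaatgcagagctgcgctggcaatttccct
Lrp11, chr10:7589567-7589766: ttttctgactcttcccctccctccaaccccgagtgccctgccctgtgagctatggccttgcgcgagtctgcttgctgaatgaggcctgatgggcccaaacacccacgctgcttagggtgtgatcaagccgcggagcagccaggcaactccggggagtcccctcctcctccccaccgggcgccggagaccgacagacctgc
Apoa1, chr9:46228380-46228579: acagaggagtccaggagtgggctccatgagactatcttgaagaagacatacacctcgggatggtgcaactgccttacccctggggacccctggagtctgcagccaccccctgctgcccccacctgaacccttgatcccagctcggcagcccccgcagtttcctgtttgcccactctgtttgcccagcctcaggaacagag

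The letters of 5 short motifs known as cores of regulatory elements were searched for on both strands of the 12 such windows that RefSeq gives for 8 of the genes. They were TGATGNAA (the core shared by ATF4 and C/EBP composite elements), TGACNNNGC (antioxidant response element), TCACNCCAC (sterol regulatory element), CAAAGTNCA (an HNF4A-type direct repeat) and CACGTG (E-box). Over all 32851 windows of this length, the motifs were present in 2.72%, 7.66%, 0.81%, 0.944% and 4.34%, in that order. None of the windows of Apob, Mttp, Lrp11 or Apoa1, nor the first window of Vldlr, nor 2 of the 3 windows of Apoe, held any of these letters, and TGACNNNGC and TCACNCCAC were in no window of the 8 genes. The matches were as follows, with the matching bases in capitals.
Vldlr, a second start, chr19:27216810-27216837, match beginning 200 bases before that start, TGATGNAA read on the other strand: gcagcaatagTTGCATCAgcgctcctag
Apoe, chr7:19698683-19698710, minus strand, 79 bases before 1 of its 3 RefSeq starts, TGATGNAA read on the other strand: acctactgatTTCCATCAcagtccccaa
Apoa4, chr9:46240652-46240680, plus strand, 182 bases before its start, CAAAGTNCA: tgttctgagaCAAAGTTCAggttggtggc
Apoa5, chr9:46268516-46268541, plus strand, 82 and 107 bases before its 2 starts, CACGTG: tttgaccctcCACGTGgtgtttgctc
A match is a description of the letters only. The starts are those of RefSeq, which can differ from the gene spans printed with the levels. The matches of Vldlr and Apoe lie inside those spans, and so does the RefSeq start used for Apoa4. TGATGNAA was in 1 of the 2 windows of Vldlr, which was called higher in Cse-/- no-Cys livers, and in 1 of the 3 windows of Apoe, which was called lower. No promoter window was given for Apoc1 or Apoc3.

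Apoa1, Apoc3, Apoa4 and Apoa5 lie side by side on chromosome 9. Between genotypes on no-Cys, Apoa1 and Apoc3 were called lower, while Apoa4 (log2 difference -0.90, edgeR adjusted p = 0.127) and Apoa5 (0.08, edgeR adjusted p = 0.608) did not pass. Apoa1 (ENSMUSG00000032083, chr9:46228580-46230466, plus strand) stood at 11802 and 11737 CPM in the Cse+/- control livers, and at 7883, 9180, 10134 and 9232 CPM in the Cse+/- no-Cys livers. In the Cse-/- no-Cys livers it was 5798, 5269, 4176 and 6178 CPM. Each of these 4 livers lay below every Cse+/- liver, and the log2 difference on the no-Cys diet was -0.77 (SE 0.161, edgeR adjusted p = 0.00196). Apoa1 was at 10167, 10332 and 9100 CPM in Cse+/- no-Trp livers. It was at 11326, 5988 and 7428 CPM in Cse-/- no-Trp livers and at 10397, 8415, 8983 and 7616 CPM in Cse-/- no-Trp + BSO livers. Among Cse-/- mice, no-Cys livers were thus lower than no-Trp livers by a log2 difference of -0.62 (SE 0.172, edgeR adjusted p = 0.0268), with overlap at 5988 CPM, and lower than no-Trp + BSO livers by -0.73 (SE 0.161, edgeR adjusted p = 0.0240), without overlap. The call against no-Trp + BSO was lost when any of av05, av06, av07, av09 or av11 was left out. The difference from no-Trp no longer passed without av14, the highest no-Trp liver (-0.32, edgeR adjusted p = 0.242), nor without av06 or av07, nor with only these groups in the fit (edgeR adjusted p = 0.143). Lrp11 in the same comparison lost its call without av14 or av16, or with only these groups in the fit (edgeR adjusted p = 0.0850). The liver av14 is one of those with adipose transcripts, whose part here was not tested.

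Apoc3 (ENSMUSG00000032081, chr9:46232933-46235636, minus strand), the inhibitor of triglyceride clearance, had the largest estimated difference between genotypes on no-Cys of the called apolipoproteins. It was 1113, 1108, 1066 and 1689 CPM in Cse-/- no-Cys livers and 2104, 1966, 2057 and 2735 CPM in Cse+/- no-Cys livers. No liver of the first group reached the second, although the liver av08 at 1689 CPM stood well above the other three. The summed level of 7 hepatocyte markers was 79142 CPM in av08 too, against 47239 to 50058 CPM in the other three. Most of this sum was Alb, at 25487 to 49456 CPM in the group, whereas Hnf4a ranged only from 651 to 781 CPM. The part of these markers in the Apoc3 value was not tested. Between genotypes on no-Cys, the log2 difference of Apoc3 was -0.83 (SE 0.145, edgeR adjusted p = 4.55e-04). In Cse+/- livers Apoc3 was 2428 and 3018 CPM on control diet and 2338, 2288 and 2453 CPM without tryptophan. In Cse-/- livers it was 2329, 2140 and 1687 CPM without tryptophan and 1786, 1916, 1719 and 1661 CPM with BSO added. The no-Cys group was lower than no-Trp by a log2 difference of -0.72 (SE 0.155, edgeR adjusted p = 0.00675), and the lowest no-Trp liver lay just below av08. This call was lost with only these groups in the fit (edgeR adjusted p = 0.0638). The difference of -0.51 from no-Trp + BSO did not pass with edgeR (SE 0.145, adjusted p = 0.0610). It passed with DESeq2 (adjusted p = 0.0177), and with edgeR without a filter on low counts (adjusted p = 0.0192) or without av08 (-0.69, adjusted p = 0.00226).

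Apoa4 (ENSMUSG00000032080, chr9:46240696-46243459, plus strand), an apolipoprotein of triglyceride-rich particles and HDL, varied widely between livers of the same group. It was 850, 289, 400 and 481 CPM in Cse+/- no-Cys livers and 422, 203, 139 and 320 CPM in Cse-/- no-Cys livers. The log2 difference of -0.90 (SE 0.417) had overlapping ranges and did not pass (edgeR adjusted p = 0.127). It did when no filter on low counts was applied (-0.88, edgeR adjusted p = 0.0359), and it was -0.52 without av01, the liver at 850 CPM. The control livers alone were at 131 and 411 CPM. The livers of a group lay close together in Cse+/- no-Trp mice, at 154, 135 and 126 CPM, and in Cse-/- no-Trp + BSO mice, at 181, 150, 174 and 141 CPM, whereas Cse-/- no-Trp livers ranged from 84.4 to 410 CPM. Of the exonic bases of Apoa4, 69.8% also belong to antisense genes in the annotation. Of these, Gm10680 had 0 reads in all 20 livers and Gm47528 was not in the count table. As the strand setting of the counting is not given, this cannot show whether reads in the shared bases were lost from Apoa4.

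Apoa5 (ENSMUSG00000032079, chr9:46268633-46271919, plus strand), the activator of lipolysis at the far end of the cluster, followed another order. Its levels were 2420 and 2626 CPM in Cse+/- control livers and 1689, 1389, 1707 and 1597 CPM in Cse+/- no-Cys livers, which did not overlap. The log2 difference was -0.66 (SE 0.116, edgeR adjusted p = 0.00582). Only 2 control livers define this change. Without av22 the difference was -0.60 and did not pass (edgeR adjusted p = 0.179). Of the 10 genes, Apoa5 alone was called in Cse+/- no-Cys against Cse+/- control livers, where 0.989% of all genes were called higher and 1.19% lower. The Cse-/- no-Cys livers, at 1717, 1814, 1531 and 1667 CPM, overlapped the Cse+/- no-Cys livers, with a log2 difference of 0.08 (SE 0.0971, edgeR adjusted p = 0.608). The remaining livers were at 2183, 1954 and 2300 CPM (Cse+/- no-Trp), 1743, 1801 and 1675 CPM (Cse-/- no-Trp) and 1440, 1702, 1312 and 1410 CPM (Cse-/- no-Trp + BSO). The genotype difference on no-Trp was -0.30 and did not pass (SE 0.112, edgeR adjusted p = 0.152), although the groups did not overlap. Of the exonic bases of Apoa5, 20.8% also belong to Gm47544, which was not in the count table.

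**Figure D2:**
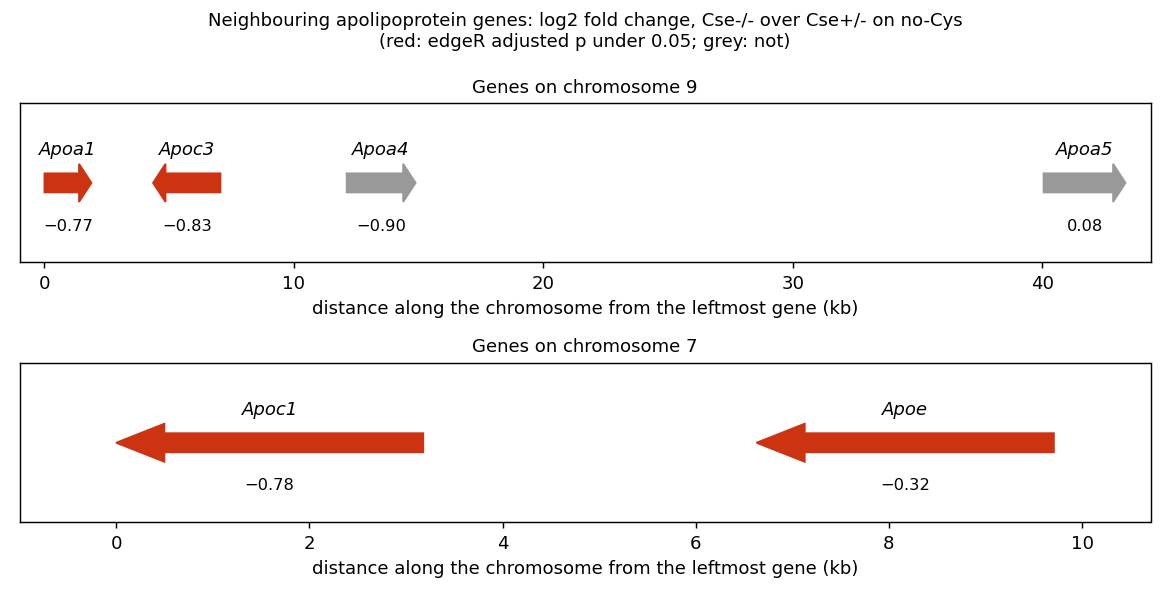
Position and length, to scale, of the neighbouring genes of chromosomes 9 and 7 (x axis, distance in kb from the leftmost gene; arrow, direction of transcription; y axis, no quantity), with the log2 difference of Cse-/- from Cse+/- livers on no-Cys below each gene. Apoa1 (-0.77) and Apoc3 (-0.83) passed the edgeR test, whereas Apoa4 (-0.90) and Apoa5 (0.08) in the same cluster did not.

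Apoc1 and Apoe lie next to each other on chromosome 7, and both were called lower in Cse-/- than in Cse+/- no-Cys livers. Apoc1 (ENSMUSG00000040564, chr7:19689481-19692660, minus strand) was 1461, 1621, 1710 and 2119 CPM in Cse-/- no-Cys livers. Cse+/- livers had 3693 and 4036 CPM on control diet, 2509, 2500.2, 2856 and 4027 CPM without cysteine, and 3910.1, 4315 and 4854 CPM without tryptophan. The other Cse-/- livers had 4189, 2485 and 2954 CPM without tryptophan and 2971, 2798, 3055 and 3079 CPM with BSO. All 4 Cse-/- no-Cys livers were below the other 16, with log2 differences of -0.78 from Cse+/- no-Cys (SE 0.163, edgeR adjusted p = 0.00183), -0.89 from Cse-/- no-Trp (SE 0.174, edgeR adjusted p = 0.00375) and -0.78 from Cse-/- no-Trp + BSO (SE 0.163, edgeR adjusted p = 0.0189). These comparisons again share the Cse-/- no-Cys livers. The call against no-Trp + BSO was lost when any of av05, av06, av07, av09 or av11 was left out. The genotype difference on no-Trp was -0.44 (SE 0.188, edgeR adjusted p = 0.211), with -0.70 without av14 and -0.29 without av15.

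Apoe (ENSMUSG00000002985, chr7:19696109-19699188, minus strand) was the most abundant of the 10 mRNAs and changed least among those called. It was 18359, 20427, 18723 and 21839 CPM in Cse-/- no-Cys livers against 22674, 22861, 24649 and 29138 CPM in Cse+/- no-Cys livers, which did not overlap. The log2 difference was -0.32 (SE 0.112, edgeR adjusted p = 0.0425). This call was near the threshold. It was lost when any of av03, av04, av05, av06 or av07 was left out, with the no-Cys groups alone in the fit (edgeR adjusted p = 0.137), without a filter on low counts (edgeR adjusted p = 0.0842), and with library size as the only scaling (-0.16, edgeR adjusted p = 0.231). In the other groups Apoe ranged from 21674 to 30275 CPM. The Cse-/- no-Cys livers differed from no-Trp by -0.26 (SE 0.121, edgeR adjusted p = 0.184) and from no-Trp + BSO by -0.39 (SE 0.113, edgeR adjusted p = 0.0658), without passing the edgeR test. Within a liver, the ratio of Apoc1 to Apoe counts was lower in all 4 Cse-/- no-Cys livers (log2 ratio -3.66 to -3.37) than in all 4 Cse+/- no-Cys livers (-3.19 to -2.86). The difference was -0.45 (2-sided exact permutation test over 70 splits, p = 0.0286, the smallest this design allows, and 0.114 adjusted over the 4 pairs of neighbours compared). For the other pairs, the exact permutation p was 0.629 for Apoa1 to Apoc3, 0.80 for Apoc3 to Apoa4 and 0.0857 for Apoa4 to Apoa5.

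Some other hepatocyte transcripts were lower beside these apolipoproteins. Of 7 hepatocyte markers, Alb (log2 difference -1.26), Ttr (-1.04) and Serpina1c (-0.70) were lower in Cse-/- than in Cse+/- no-Cys livers with edgeR, Cps1 was higher, and Fgb, Hnf4a (0.07) and Cyp2e1 (-0.04) did not pass. Their summed level was 47239 to 79142 CPM in Cse-/- and 88656 to 116356 CPM in Cse+/- no-Cys livers. All 5 red cell markers (69.0 to 114 against 201 to 405 CPM), 2 of 5 bile duct markers (16.4 to 28.6 against 45.9 to 57.8 CPM) and 3 of 7 stellate cell and fibroblast markers (213 to 255 against 267 to 317 CPM) were also lower, and 1 of 7 endothelial markers was higher. Of 8 Kupffer cell and macrophage markers (204 to 265 against 243 to 315 CPM), edgeR called 0, with 2 at an unadjusted p under 0.05 and 0 called by DESeq2. The part of these markers in the results for the 10 genes was not tested.

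Apob and Mttp, the genes of the VLDL core, did not pass the edgeR test in any comparison when all 20 livers were fitted with TMM scaling. Apob (ENSMUSG00000020609, chr12:7977648-8016835, plus strand) was 5482, 4531, 4164 and 5086 CPM in Cse-/- no-Cys livers and 4685, 4143, 4861 and 3707 CPM in Cse+/- no-Cys livers. These overlapped, with a log2 difference of 0.15 (SE 0.138, edgeR adjusted p = 0.468). Over all 20 livers Apob ranged only from 3144 to 5482 CPM. Mttp (ENSMUSG00000028158, chr3:138089854-138144968, minus strand) was 333, 321, 306 and 256 CPM in Cse-/- no-Cys livers and 261, 330, 301 and 317 CPM in Cse+/- no-Cys livers, with a log2 difference of 0.01 (SE 0.111, edgeR adjusted p = 0.965). Of the exonic bases of Mttp, 9.49% also belong to genes on the other strand, Gm43691 (0 to 9 reads per liver) and Trmt10a (45 to 565 reads). The clearest difference of Mttp was elsewhere. Cse-/- livers had 228, 251, 228 and 245 CPM with BSO and no tryptophan, all below the 269, 375 and 301 CPM without tryptophan alone. That log2 difference of -0.41 did not pass with edgeR (SE 0.119, adjusted p = 0.118) and did with DESeq2 (adjusted p = 0.0371). Against the same BSO livers, the no-Cys livers were higher by 0.35, which did not pass with edgeR (adjusted p = 0.0832). It passed with DESeq2 (adjusted p = 0.0321), and with edgeR scaled by library size only (0.43, adjusted p = 0.0482) or without av08 (0.43, adjusted p = 0.0236).

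Compared per kilobase of exon, the abundance order was nearly the same in every group. In Cse+/- control livers the mean level fell from Apoe (12647 CPM per kb) through Apoa1 (9522), Apoc1 (5195), Apoc3 (2686), Apoa5 (1000.5), Apob (279), Apoa4 (149) and Mttp (39.6) to Lrp11 (0.402) and Vldlr (0.175 CPM per kb). In Cse-/- no-Cys livers Apoe was at 9278, Apoa1 at 4333, Apoc1 at 2322, Apoc3 at 1227 and Apoa5 at 667 CPM per kb, and Lrp11 and Vldlr were at 1.24 and 1.11 CPM per kb with overlapping ranges. The first 8 genes kept this order of means in all 6 groups. The full exon length was used, although 69.8% of the exonic bases of Apoa4 and 20.8% of those of Apoa5 also belong to other annotated genes. Whether reads there were counted is not known, so the places of these genes in the order are uncertain. Neighbours in the order had overlapping ranges for Apob and Apoa4 in the Cse+/- no-Cys and Cse-/- no-Trp groups, and for Apoa1 and Apoc1 and for Apoa4 and Mttp in the Cse-/- no-Trp group. Thus even at their highest, the receptor transcripts stayed far below the apolipoproteins.

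The other diet contrasts add the following counts for the 10 genes. In Cse-/- livers, no-Cys against no-Trp called 1 higher (Lrp11) and 3 lower (Apoa1, Apoc1 and Apoc3), with 5.05% of all genes called higher and 5.35% lower. No-Cys against no-Trp + BSO called 1 higher (Lrp11) and 2 lower (Apoa1 and Apoc1), with 1.33% and 1.42% of all genes called. Apoa1 and Apoc1 in that contrast lost the call when any of av05, av06, av07, av09 or av11 was left out, and Lrp11 when av05, av06, av09 or av11 was left out. DESeq2 called 6 of the 10 there, adding Apoc3, Apoe (adjusted p = 0.0117) and Mttp. Both contrasts share their Cse-/- no-Cys livers with the genotype contrast. Cell type markers differed here too. Against no-Trp, 3 of 7 hepatocyte markers (sums of 47239 to 79142 against 71677 to 81987 CPM), 1 of 5 bile duct markers (16.4 to 28.6 against 27.5 to 46.1 CPM), 3 of 5 red cell markers (69.0 to 114 against 119 to 184 CPM), 1 of 4 tested adipose markers and 1 of 7 stellate cell and fibroblast markers were lower (edgeR). Car3 of the adipose list was at 506 to 1155 CPM without cysteine and 1495 to 2019 CPM without tryptophan. It was thus abundant also where Adipoq had 0 reads, as in all these no-Cys livers and in av15, and does not mark adipose tissue alone here. Against no-Trp + BSO, 2 of 7 hepatocyte (68543 to 82821 CPM with BSO) and 2 of 5 bile duct markers (36.3 to 48.6 CPM with BSO) were lower. Their part in these calls was not tested.

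For BSO added to the no-Trp diet, edgeR called 0 of the 10 (0.488% of all genes higher, 0.305% lower), with 2 at an unadjusted p under 0.05 (Mttp and Apoa5) and 1 called by DESeq2 (Mttp). Between genotypes on no-Trp, edgeR called 0 (1.40% higher, 1.24% lower), with 4 at an unadjusted p under 0.05 (Vldlr, Lrp11, Apoa5 and Apoc1) and 1 called by DESeq2 (Vldlr). Between no-Trp and control diet in Cse+/- livers, edgeR called 0 (0.00678% higher, 0.0407% lower), with 0 at an unadjusted p under 0.05 and 0 by DESeq2. For the interaction, which asks whether the genotype difference on no-Cys differs from that on no-Trp, edgeR called 0 (1.67% higher, 2.69% lower), with 3 at an unadjusted p under 0.05 and 0 by DESeq2. These 3 were Apoc3 (-0.63, edgeR adjusted p = 0.111), Apoa4 (-1.68, edgeR adjusted p = 0.144) and Apoa5 (0.38, edgeR adjusted p = 0.157). Apoa4 passed when no filter was applied (edgeR adjusted p = 0.0221) and was -1.03 without av15, and Apoc3 passed when av08 was left out (edgeR adjusted p = 0.00809).

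**Figure D3:**
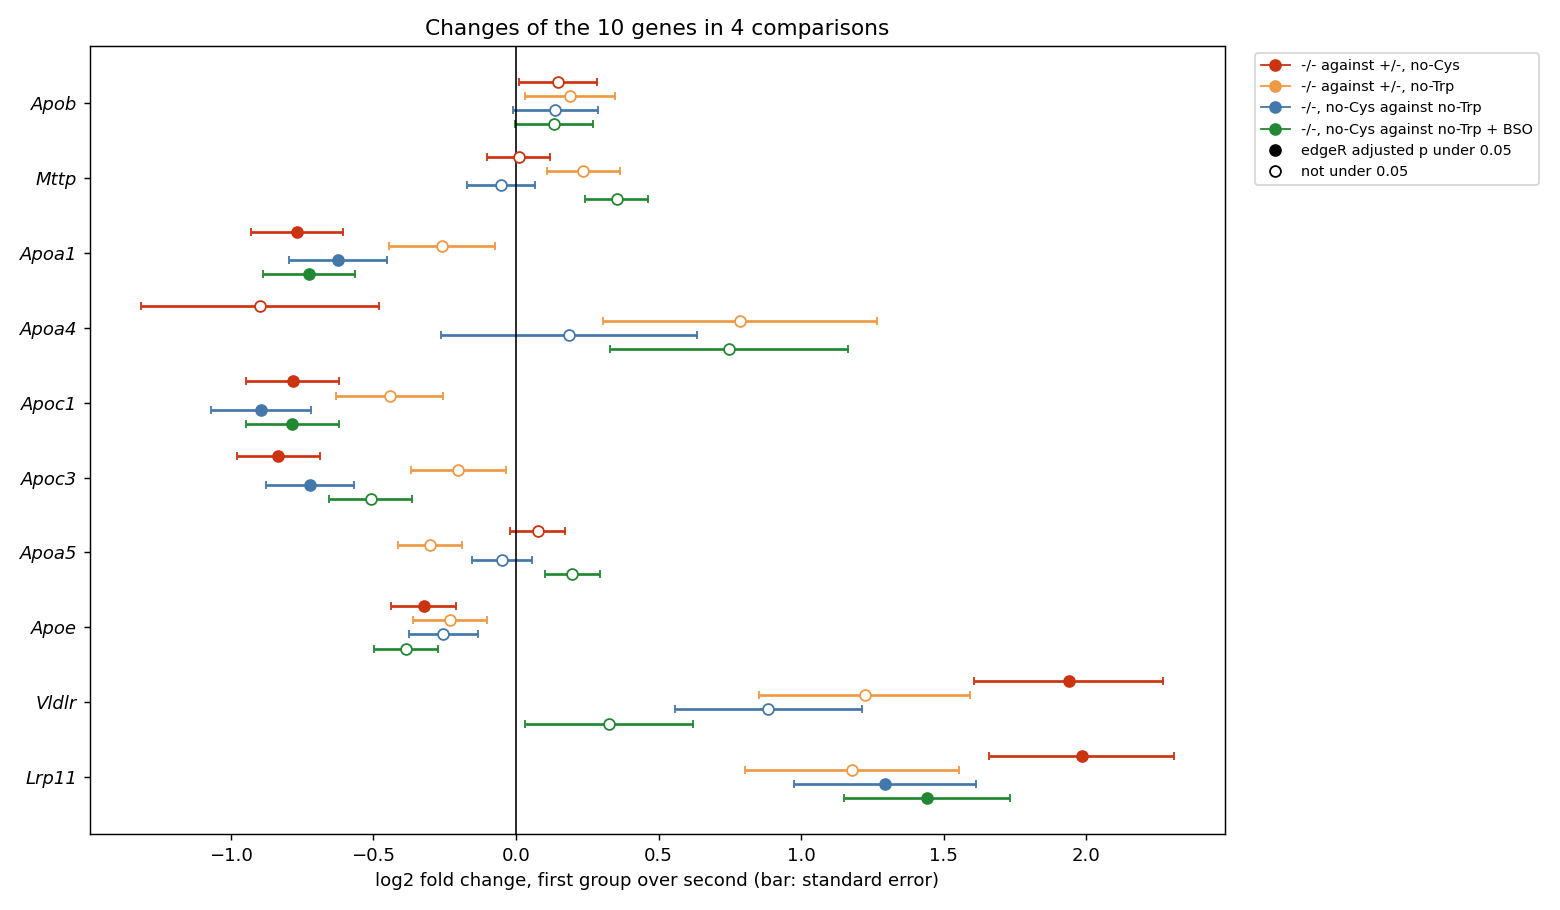
Log2 difference of each gene (x axis; point, edgeR estimate; bar, standard error) in 4 contrasts (colours), filled where the adjusted p was under 0.05. Vldlr and Lrp11 lie to the right of 0 in all 4 contrasts, from 0.33 to 1.98, although Vldlr was filled only between genotypes on no-Cys. Apoa1, Apoc1 and Apoc3 lie to the left, and Apob and Mttp lie between -0.05 and 0.35.

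Among 50 other genes of lipoprotein metabolism, 48 could be tested and 16 were called between Cse-/- and Cse+/- livers on no-Cys, 4 higher and 12 lower (edgeR), against 11.6% of all tested genes called higher and 12.2% lower. The median log2 difference of these 48 was -0.09. Of 7 further apolipoprotein genes and the editing enzyme gene Apobec1 listed with them, 7 were tested and 4 called, all lower. Of 10 genes of VLDL assembly and secretion, 2 were called, both lower, and of 16 receptors and adaptors 1 was higher and 3 were lower. Of 15 genes of lipolysis and remodelling, 3 were higher and 3 lower. The largest difference was in Cd36, the fatty acid transporter and scavenger receptor, at 27.3 ± 3.48 CPM in Cse+/- and 203 ± 22.3 CPM in Cse-/- livers (SD, n = 4 each). Its log2 difference was 2.89 (SE 0.181, edgeR adjusted p = 1.51e-08). Angptl8, a secreted inhibitor of lipolysis, was higher by a log2 difference of 1.15 (edgeR adjusted p = 0.0303). It was at 22.4 ± 12.9 CPM in Cse+/- and 49.4 ± 30.5 CPM in Cse-/- livers (SD, n = 4 each), with overlapping ranges. Without av08 the difference was 0.70 (edgeR adjusted p = 0.145). Lipc, the hepatic lipase, was lower, at 149 ± 30.2 CPM in Cse+/- and 73.0 ± 14.4 CPM in Cse-/- livers (-1.03, edgeR adjusted p = 2.38e-04). So was Sort1, a sorting receptor that binds apolipoprotein B, at 28.1 and 13.7 CPM (-1.04, edgeR adjusted p = 7.28e-04). Sorl1, another sorting receptor, was lower by 1.15 on the log2 scale (edgeR adjusted p = 0.0369), and Lpl, which encodes lipoprotein lipase, was lower by 0.83 on the log2 scale (edgeR adjusted p = 0.0388). The calls of Angptl8, Sorl1 and Lpl were lost under 7, 8 and 10 of 15 alternatives.

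**Figure D4:**
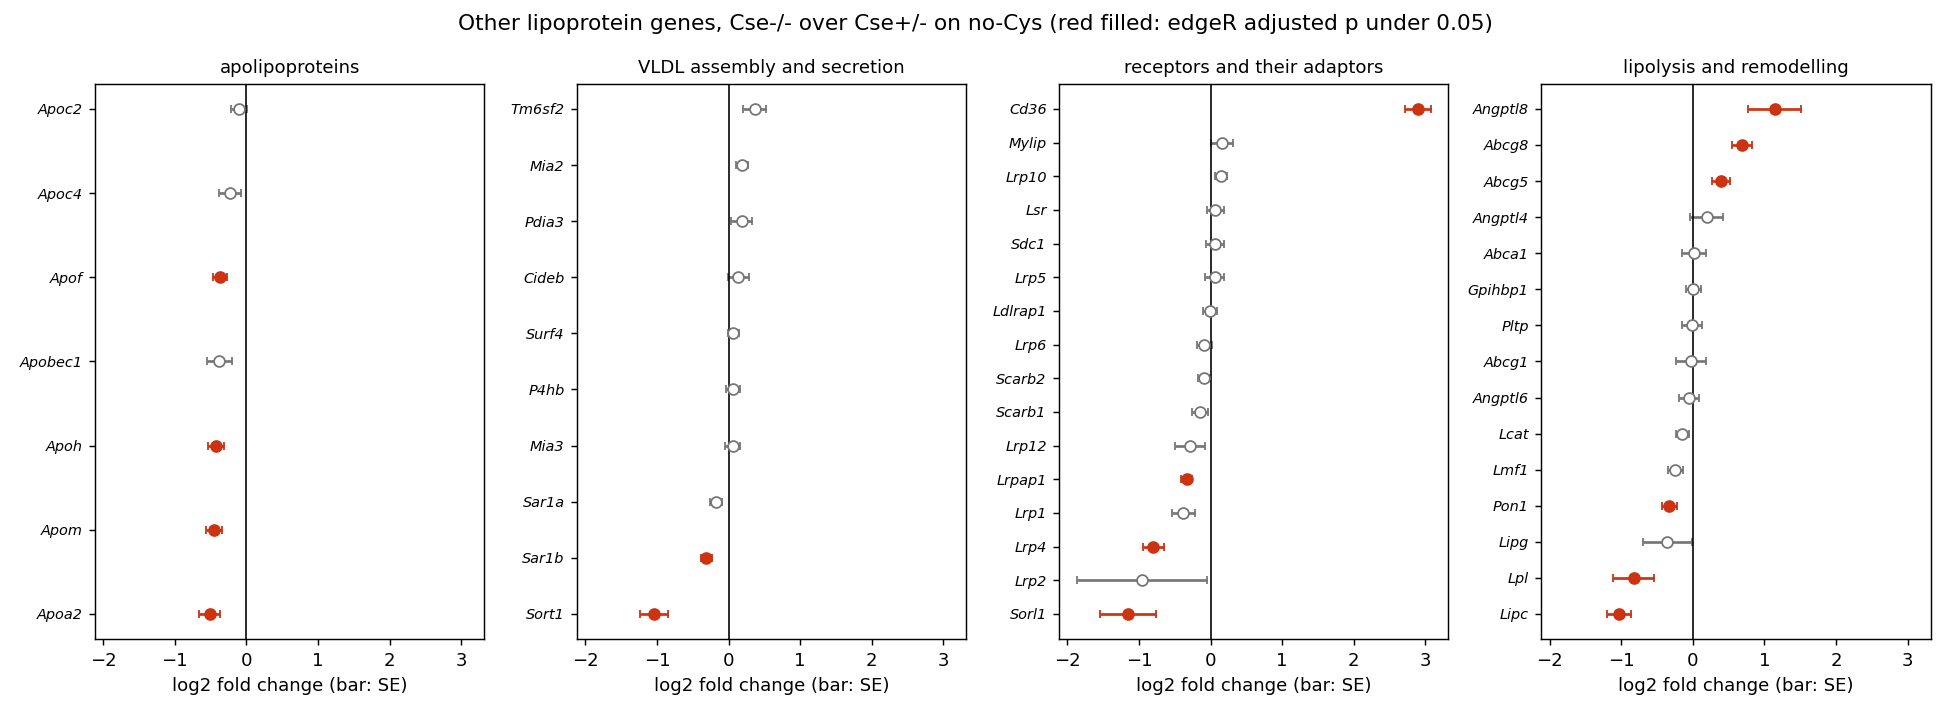
Log2 difference (x axis; point, edgeR estimate; bar, standard error) of Cse-/- from Cse+/- livers on no-Cys for the 48 other genes of lipoprotein metabolism tested, in 4 lists (panels; y axis, genes in order of the difference). Red filled points have an adjusted p under 0.05, with Cd36 (2.89) farthest right and Sorl1 (-1.15) farthest left.

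Lrp4, a member of the lipoprotein receptor-related protein family, was the only 1 of the 48 genes with an interaction past the edgeR threshold (2.69% of all genes lower, 1.67% higher; -0.99, SE 0.218, adjusted p = 0.0141), and DESeq2 called 3. Its mean was 53.0 ± 6.64 CPM in Cse+/- and 30.5 ± 8.24 CPM in Cse-/- livers without cysteine (n = 4 each), with no overlap. Without tryptophan, Lrp4 ranged from 42.5 to 56.9 CPM in 3 Cse+/- and from 53.3 to 59.5 CPM in 3 Cse-/- livers, which overlapped. Between genotypes on no-Trp, 2 of the 48 were called, both higher (edgeR; 1.40% of all genes higher and 1.24% lower), namely Cd36 (2.61, edgeR adjusted p = 8.73e-07) and the sterol exporter subunit Abcg8 (0.62, edgeR adjusted p = 0.0470). The call of Abcg8 was lost under 6 of 13 alternatives, and its difference was 0.32 without av15 (edgeR adjusted p = 0.287). Cd36 was thus 141 to 276 CPM in the 11 Cse-/- livers and 22.9 to 35.0 CPM in the 9 Cse+/- livers, without overlap, as for Vldlr.

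Within Cse-/- livers, no-Cys against no-Trp called 2 of the 48 higher and 7 lower (edgeR; 5.05% and 5.35% of all genes), with Lipc (-1.02), Lrp4 (-0.90), Lrp12 (-0.81), Apoa2 (-0.72), Sar1b (-0.68) and Lrp5 (0.67) the largest. Lrp12 lost its call under 4 of 14 alternatives (without av05, av06 or av16, or at an adjusted p under 0.01), Apoa2 without av14 (edgeR adjusted p = 0.0600), and Lrp5 with only these groups in the fit (edgeR adjusted p = 0.0659). No-Cys against no-Trp + BSO called 4 lower (1.42% of all genes) and 0 higher (1.33%), namely Lipc (-0.99), Lrp4 (-0.74), Apoa2 (-0.62) and Apoh (-0.43). Of 15 alternatives, 8 lost the call of Apoa2, 8 that of Apoh, 3 that of Lrp4 and 0 that of Lipc. Apoa2 lost it without any 1 of av05, av06, av07, av09, av10, av11 or av12, Apoh without any 1 of the same livers except av10, and Lrp4 without av05 or av06. BSO against no BSO on no-Trp called 1 lower (0.305% of all genes), Sar1b (-0.53, edgeR adjusted p = 0.00436), a GTPase of the vesicles that carry large lipoproteins, which lost the call with only these groups in the fit (edgeR adjusted p = 0.0514). In Cse+/- livers, no-Cys against control called 1 lower (1.19% of all genes), Sdc1 (-0.59, edgeR adjusted p = 0.0397). This call was lost under 7 of 13 alternatives, among them leaving out either control liver (edgeR adjusted p = 0.469 without av22 and 0.0676 without av21) or any 1 of av02, av03 or av04. No-Trp against control called 0 with edgeR, 5 at an unadjusted p under 0.05 and 0 with DESeq2.

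The genes whose log2 CPM most resembled 4 of the 10 genes were sought over the 20 livers among 12578 tested genes with a mean of at least 1 CPM. These livers share genotype and diet, so the values of Pearson's r describe likeness only. For Vldlr they were Entpd5 (r = 0.923), Rab5if (0.918) and Adora1 (0.903). For Lrp11 they were Cct6a (0.932), Adss (0.929) and Nsun3 (0.929), and for Apoc1 they were Apoa2 (0.967), Uqcr11 (0.966) and Prdx2 (0.964). Apoa4 had looser neighbours, with Tgfbrap1 at 0.824, Arap2 at 0.823 and Mtmr1 at 0.782.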

How the data were processed

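Liver poly(A) RNA (Trizol extraction, NEBNext Ultra libraries, a kit that does not mark strand) was sequenced by the authors, who deposited raw counts per gene in a table of 46078 Ensembl genes. The submitters' processing notes name HISAT2 2.1.0, HTSeq 0.11.0 and GRCm38. The annotation release and the strand setting are not given in the sources used here. Columns carry mouse numbers, which were tied to genotype and diet, not to replicate numbers, through the study's list, and 1 of 21 columns was not used. Totals were 11785740 to 57986121 counts.

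Counts were filtered with filterByExpr (10 counts, 15 in total), scaled by TMM and fitted in edgeR 4.0.16 (R 4.3.3) with a mean for each of 6 groups over 20 livers. Quasi-likelihood F tests of 8 contrasts were 2-sided and adjusted by Benjamini-Hochberg over 14759 genes, at a threshold of 0.05. The script was tested on simulated data. SE is the log2 difference divided by the root of F. Replicate libraries differed by more than sampling noise in all 25 pairs, so each was kept. Alternatives were DESeq2 1.42.0 (the study's tool), its size factors in edgeR, no filter, a minimum mean of 1 CPM, fits of the compared groups alone, a threshold of 0.01 and leaving out each liver. Library size as the only scaling was added after seeing the data. Library size in place of TMM shifted the median of all genes by 0.163 (log2) between genotypes on no-Cys.

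The 10 genes and the lists of other lipoprotein genes and cell markers were chosen with earlier results of these data known. All 10 genes were named. Other lipoprotein genes were named when called, up to the 6 with the largest change per contrast, and the 3 most similar genes for 4 of the 10. Some listed genes are not reported here. Promoter windows came from RefSeq (GRCm38.p6).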

Additional observations from a re-analysis of the deposited data

Results flagged for a closer look

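Of 72 groups of 4 livers tested for a value standing apart (10 genes and the other lipoprotein genes named above), 3 had one, by Dixon's criterion at 95%, where chance gives about 1 in 20. Apoc3 was 1689 CPM in the Cse-/- no-Cys liver av08, against 1066 to 1113 CPM in the other three. The summed hepatocyte markers of av08, most of them Alb, were also apart, at 79142 CPM against 47239 to 50058 CPM. Hnf4a ranged only from 651 to 781 CPM in this group. Sorl1 was 7.05 CPM in the Cse+/- no-Cys liver av02 (others 4.41 to 4.81 CPM) and 3.01 CPM in the Cse-/- no-Trp + BSO liver av10 (others 1.05 to 1.25 CPM).

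The genotype difference differed between the no-Cys and no-Trp diets, by the interaction term of edgeR, for Lrp4 (log2 difference of differences -0.99). It held under 20 of 21 alternatives run, all but the stricter threshold.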

How the results depend on the processing

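Of 204 alternative values for results called among the 10 genes, 167 kept their direction and call, 37 lost the call and 0 reversed. Of the uncalled values, 916 stayed so, 16 gained a call and 34 changed sign. No paired analysis was possible because nothing states which mice of different groups belong together, such as littermates. The cause of each change was not tested unless fewer livers or genes entered the fit.

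Between genotypes on no-Cys, 5 to 6 genes were called when each liver was left out. The counts that moved by more than 1.5 times were, for no-Cys against no-Trp in Cse-/- mice, 2 at an adjusted p under 0.01, 2 with only the groups compared (Apoc1 and Vldlr, with Apoa1, Apoc3 and Lrp11 lost) and 2 (without av14) to 4 leaving out each liver. For no-Cys against no-Trp + BSO they were 0 at an adjusted p under 0.01, 6 with DESeq2, and 0 (without av05, av06, av09 or av11) to 6 (without av08), with 1 without av07. For Cse+/- no-Cys against control the range was 0 (without av22) to 1. For the interaction the count was 1 without a filter (Apoa4, edgeR adjusted p = 0.0221) and 0 to 1 leaving out each liver (without av08, Apoc3 at edgeR adjusted p = 0.00809). Between genotypes on no-Trp it was 1 with DESeq2 and 1 without a filter, both Vldlr, and for BSO it was 1 with DESeq2 (Mttp).

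All sign changes were of uncalled differences. With library size only, Apoa5 and Mttp became 0.0295 and 0.0325 for no-Cys against no-Trp, Apob 0.0495 and Apoe 0.00133 for the interaction, and Apob 0.0603 for Cse+/- no-Trp against control. Apob with BSO became -0.00237 (DESeq2), -0.00248 (its size factors) and -0.000844 (only the groups compared). Leaving out each liver gave, for BSO added to no-Trp, Apoa1 -0.0966 to 0.395, Apoa4 -0.97 to 0.07, Apob -0.19 to 0.12, Apoc1 -0.28 to 0.13 and Lrp11 -0.42 to 0.39. For no-Cys against no-Trp it gave Apoa4 -0.22 to 0.83, Apoa5 -0.0924 to 0.00182, Apob -0.0506 to 0.26 and Mttp -0.15 to 0.0861. For Cse+/- no-Trp against control it gave Apoa4 -1.57 to 0.0787, Apob -0.0687 to 0.0718 and Apoe -0.00874 to 0.11, and for Cse+/- no-Cys against control Lrp11 -0.70 to 0.0804. For the interaction it gave Apob -0.22 to 0.0856 and Apoe -0.15 to 0.00205, and between genotypes on no-Cys Mttp -0.0551 to 0.0832. Low counts (Lrp11, 11 to 79 reads per liver) and the control group of 2 livers limit precision.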
